A study of Mus musculus with 4 samples.

Results

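The ionotropic receptor genes of the mouse, which encode the subunits of ligand-gated ion channels for glutamate, GABA, glycine and acetylcholine, were examined in spinal motor neurons. Members were taken by gene symbol alone, as the Gria, Grid, Grik and Grin genes of the glutamate receptors, the Gabr genes of the GABA-A and GABA rho receptors, Glra1 to Glra4 and Glrb of the glycine receptor, and the Chrn genes of the nicotinic receptors. The rule found 57 of 27189 genes, each with 1 entry, and used no measured value. Grin3a was not analysed here. RNA came from large, Azure B-stained ventral horn cell bodies cut out by laser from frozen spinal cord sections of mice at 3 months of age, and 3000 to 4000 cell bodies of 1 mouse were pooled in each library. There were 2 libraries from wild-type SOD1-YFP mice (strain 592) and 2 from G85R SOD1-YFP mice (strain 737), all on a mixed C57BL/6J x SJL/J background. Both strains carry a genomic fragment of human SOD1 joined to yellow fluorescent protein, and strain 737 adds the G85R change that causes familial amyotrophic lateral sclerosis. Strain 737 holds many more transgene copies, at an insertion on chromosome 4, so that mutation, copy number, insertion site and strain could not be told apart. Most G85R animals are not yet paralyzed at this age, and cells with large fluorescent aggregates were left out of the capture. No library of a mouse without a transgene was analysed here.

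Motor neurons are the output cells of the spinal cord, and the receptors on their cell bodies and dendrites receive the excitatory and inhibitory input that sets their firing. AMPA receptors are tetramers of the Gria subunits and carry fast glutamate currents. NMDA receptors need the obligatory subunit Grin1 together with Grin2 or Grin3 subunits. Inhibition in the ventral horn is carried by glycine receptors, built from Glra alpha subunits and the beta subunit Glrb, and by GABA-A receptors, most of which combine alpha, beta and gamma subunits. Acetylcholine acts on nicotinic receptors of neurons and, at the neuromuscular junction, on a separate muscle receptor whose genes are used by muscle fibers.

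The AMPA subunits are known for a site in the channel pore where the codon for glutamine can be edited in Gria2 RNA to one read as arginine, which makes the channel nearly impermeable to calcium. The genomic sequence of this site was read from the coding strand of build NCBIM37 (mm9), the build to which the reads were mapped, and is shown because the calcium permeability of AMPA receptors depends on the balance between Gria2 and the other subunits, whose levels follow. Each sequence holds 21 coding bases, with the codon of the site in capitals.
Gria1 (chr11:57056593-57056613, plus strand, exon 11 of 16): atgCAGcaaggatgtgacatt
Gria2 (chr3:80510818-80510838, minus strand, exon 11 of 17): atgCAGcaaggatgcgatatt
Gria3 (chrX:38963439-38963459, plus strand, exon 12 of 17): atgCAGcaaggatgtgatatt
Gria4 (chr9:4464122-4464142, minus strand, exon 12 of 17): atgCAAcaaggatgtgacatt
All 4 genes encode glutamine at the site in the genome, through the codon CAA in Gria4 and CAG in the others. Any pair of the genes shared 18 to 20 of the 21 bases. The share of edited Gria2 RNA was not measured here, since the values are levels per gene.

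Levels are given as RPKM, mapped reads per unit of gene length and of library size. They can be compared between genes as far as the entries cover the transcripts. Entries covered an estimated 65.1% of the longest annotated transcript for Gria2, 66.5% for Gria4, 88.3% for Gria3 and 97.4% for Gria1. For Glra1 and Glrb this was 59.4% and 98.6%. A single read was worth a median of 0.0195 to 0.0226 RPKM over genes in the 4 libraries, and 21560318 to 25186594 reads in all were estimated to lie behind the values of a library. The mouse Sod1 gene was at 96.3 and 146 RPKM in wild-type against 124 and 150.1 in G85R, and the transgene itself was not analysed here. The markers of motor neurons had a summed RPKM of 2194 to 2710 for Chat, Slc5a7, Slc18a3, Isl1, Mnx1, Prph and Nefh. Most of this sum came from Nefh at 1002 to 1106 and Prph at 647 to 870. Slc18a3 was at 309 to 477, Slc5a7 at 167 to 221 and Chat at 49.6 to 81.2. Lower were Mnx1 at 15.1 to 18.3 and Isl1 at 4.41 to 6.37. Markers of other cells were also measured. The 4 markers of inhibitory interneurons summed to 145 to 167, with Slc32a1 at 81.8 to 93.6 and Slc6a5 at 52.3 to 61.1, the 5 of oligodendrocytes to 729 to 949, the 5 of microglia to 4.53 to 8.17 and the 3 of skeletal muscle to at most 0.205. Those of glutamatergic interneurons summed to 35.7 to 50.6, nearly all of it Slc17a6 at 35.2 to 50.3. The endothelium markers summed to 6.66 to 8.85 and those of oligodendrocyte precursors to 1.73 to 1.85. The 6 astrocyte markers summed to 36.2 and 40.1 in wild-type against 124 and 51.6 in G85R, and replicate 1 of G85R stood apart through Gfap at 91.9 RPKM, against 11.5 to 28.4 in the others. The part of RNA from other cells in the receptor levels was not tested. As these are pooled cell bodies, fewer cells of a type and less RNA per cell cannot be told apart.

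Of the 57 receptor genes, 30 averaged 1 RPKM or more over the libraries, 23 were lower but listed above 0 in at least 1 library, and 4 were listed at 0 in all libraries. In 16 genes every library reached 10 RPKM. Together the receptor genes made up 0.216% to 0.233% of the summed RPKM of a library. The GABA and glycine receptor genes held 51.9% to 55.5% of the receptor total, the ionotropic glutamate receptor genes 40.6% to 44.1%, and the nicotinic genes 3.49% to 4.26%. The order of these 3 shares was the same in every library. The single highest gene, Glrb, lay at the 98.9th percentile of the genes listed above 0, and Grin1 at the 97.0th.

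**Figure D1:**
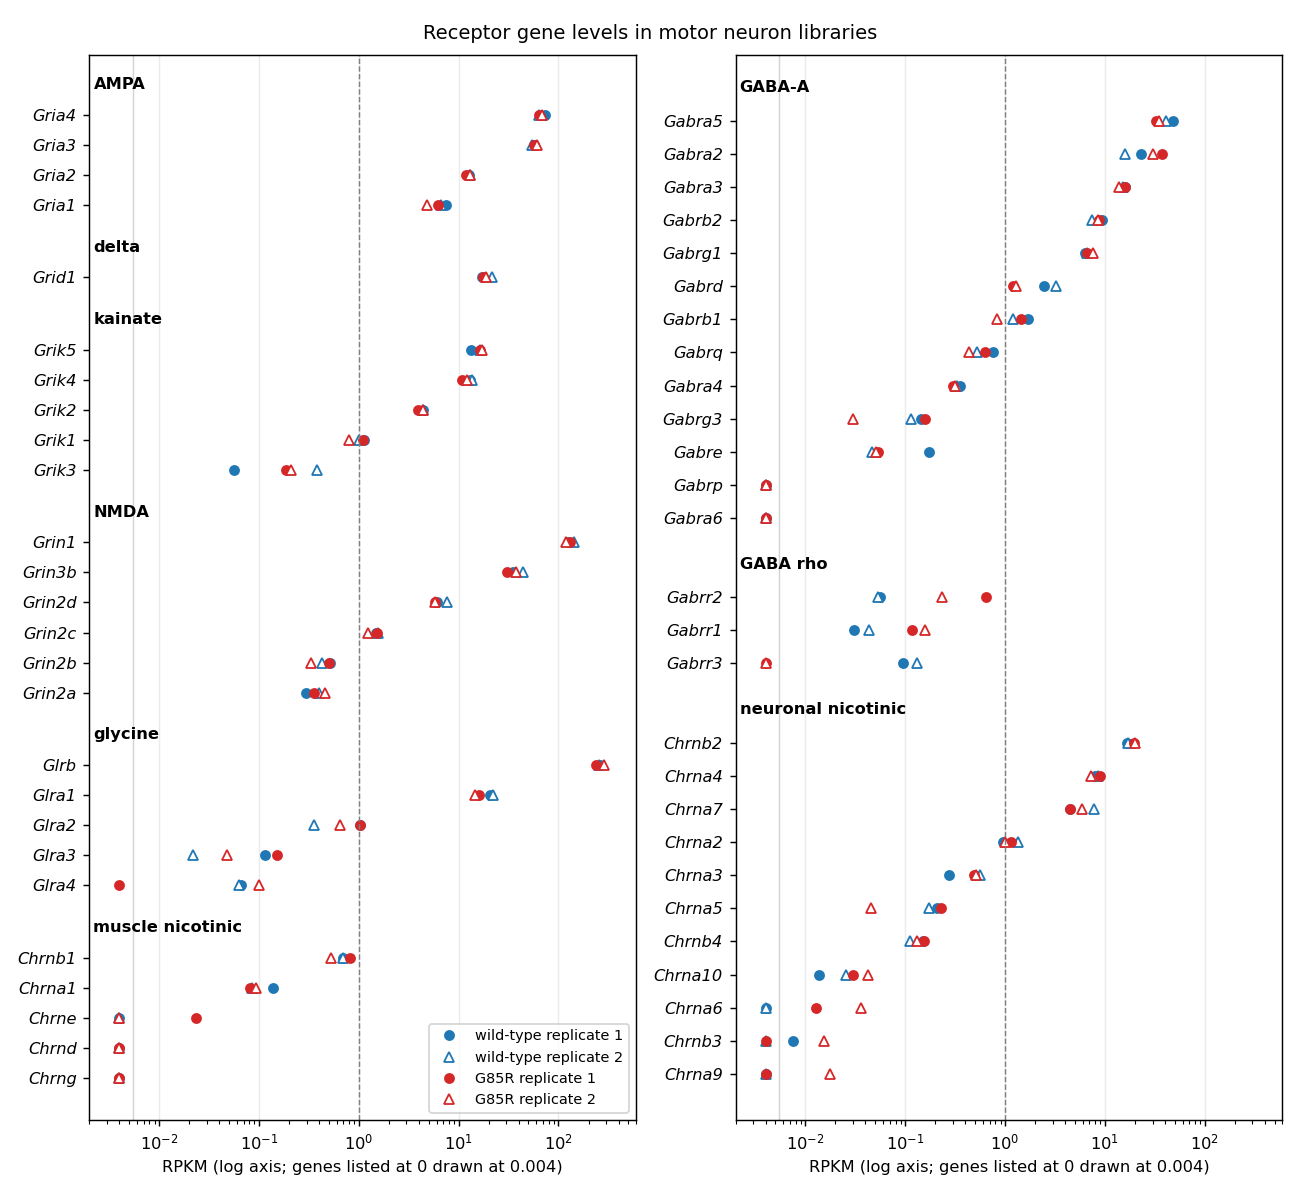
RPKM of 53 of the 57 receptor genes in the 4 libraries, by receptor class, on a log axis. Filled circles are replicate 1 and open triangles replicate 2 of wild-type (blue) and G85R (red), the dashed line marks the minimum mean RPKM of 1 used for testing, and genes listed at 0 are drawn at 0.004. The order of genes within a class is wider than the spread between libraries for most neighbors, and Glrb and Grin1 are highest.

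AMPA receptor RNA was dominated by Gria4 and Gria3, with little Gria2. Gria4 (chr9:4417899-4796234, Entrez 14802) was measured at 73.3 and 64.2 RPKM in wild-type against 63.8 and 68.5 in G85R motor neurons. Gria3 followed at 56.8 and 54.1 in wild-type against 56.7 and 60.4 in G85R. Gria2, the subunit whose edited form limits calcium entry, was lower at 12.6 and 13.1 in wild-type against 12.0 and 13.0 in G85R. Gria1 was the lowest at 7.42 and 6.61 in wild-type against 6.17 and 4.80 in G85R. The order Gria4, Gria3, Gria2, Gria1 held in 4 of 4 libraries, and no neighbors in it had ranges that overlapped. Gria2 held 8.39% to 9.50% of the summed AMPA subunit RPKM, and Gria3 and Gria4 together 85.7% to 87.9%.

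NMDA receptor RNA consisted mainly of Grin1 and, among its partners, of Grin3b. Grin1 (chr2:25146701-25174707, Entrez 14810), the obligatory subunit, was at 126 and 144 RPKM in wild-type against 132 and 120 in G85R. Grin3b (chr10:79433460-79439935, Entrez 170483), a subunit known for forming channels of low calcium permeability and for its expression in motor neurons, was at 35.0 and 43.7 in wild-type against 30.3 and 37.3 in G85R. These ranges overlapped between genotypes in both genes. Grin2d, at 5.77 to 7.61 over the libraries, and Grin2c, at 1.23 to 1.55, were lower, and the widespread forebrain subunits Grin2a and Grin2b did not exceed 0.457 and 0.520. Grin3b made up 78.6% to 82.7% of the summed RPKM of the Grin2 and Grin3 genes measured. The entries of Grin2a and Grin2b covered an estimated 1780 and 1612 bases, 36.9% and 21.5% of their longest annotated transcripts, so that reads in the rest of these transcripts may not be part of their values.

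The kainate receptor genes were lower, and their RNA came mostly from the high-affinity subunits Grik5 and Grik4, which form channels only with Grik1, Grik2 or Grik3. Grik5 (chr7:25794872-25857388, Entrez 14809) was at 13.4 and 16.2 RPKM in wild-type against 16.3 and 17.1 in G85R. Grik4 was at 10.8 to 13.5 over the libraries, below Grik5 in each library although their ranges overlapped. Grik2 reached 3.92 to 4.41, Grik1 0.798 to 1.13, and Grik3 0.0567 to 0.384, so that the subunits able to form channels on their own were the lower ones. The entry of Grik3 covered under 50% of its longest transcript, as did those of Gabrg3 and Glra3. Of the delta receptors, which act as synaptic organizers, Grid1 (chr14:35633011-36396565, Entrez 14803) was at 17.2 and 21.5 in wild-type against 17.6 and 18.7 in G85R.

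GABA-A receptor RNA was spread over more genes than that of any other class here, with 10 of 16 genes tested. Among the alpha subunits, Gabra5 and Gabra2 were highest, ahead of Gabra3 at 13.7 to 15.8 RPKM. Gabra4 stayed at 0.300 to 0.350. The beta subunit Gabrb2 was at 7.43 to 9.43 and the gamma subunit Gabrg1 at 6.39 to 7.60. Gabrd, the delta subunit of receptors outside synapses, was at 1.20 to 3.27, and Gabrb1 at 0.834 to 1.69. The theta subunit Gabrq was at 0.437 to 0.752, while Gabrg3 and the epsilon subunit Gabre did not exceed 0.157 and 0.172.

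Levels varied widely within clusters of neighboring receptor genes. In all, 27 of the 57 receptor genes lay within 1 Mb of another, in 10 clusters, and 14 of the 16 GABA-A genes lay in 4 of these. On chromosome 5 Gabra2, at a mean of 26.7, lay beside Gabrg1 at 6.79, Gabra4 at 0.323 and Gabrb1 at 1.29. On chromosome 7 Gabra5 at 39.0 lay near Gabrg3 at 0.111, whose entry covered an estimated 14.2% of its longest annotated transcript. Glrb and Gria2, of different classes, were neighbors on chromosome 3 at 259 and 12.7.

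The glycine receptor was represented by Glrb and Glra1, the beta subunit and the main adult alpha subunit. Glrb (chr3:80647521-80717582, Entrez 14658), which binds the scaffold protein gephyrin, was at 260.2 and 253 RPKM in wild-type against 235 and 288 in G85R. Glra1 (chr11:55327740-55421700, Entrez 14654) held 93.2% to 98.1% of the alpha subunit RPKM. Glra2, the alpha subunit of the developing nervous system, was at 0.353 to 1.03, and Glra3 and Glra4 did not exceed 0.152 and 0.101. Glrb exceeded Glra1 in every library, by 11.4-fold to 19.6-fold.

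The nicotinic genes of motor neurons were led by Chrnb2 and Chrna4, the subunits of the most common receptor of the brain. Chrnb2 (chr3:89557370-89568554, Entrez 11444) was at 16.6 and 17.0 RPKM in wild-type against 19.7 and 19.9 in G85R. Chrna4 was at 7.22 to 9.02, Chrna7, which forms channels by itself, at 4.48 to 7.77, and Chrna2 at 0.950 to 1.36. The autonomic ganglion cluster on chromosome 9 was low, with Chrna3 at 0.276 to 0.557, Chrna5 at 0.0454 to 0.227 and Chrnb4 at 0.111 to 0.153. Chrna6, Chrna9, Chrna10 and Chrnb3 did not exceed 0.0421. Of the muscle receptor, only Chrnb1 (chr11:69597538-69609445, Entrez 11443) was readily detected, at 0.698 and 0.702 in wild-type against 0.817 and 0.524 in G85R. Chrna1 was at 0.0813 to 0.137, and Chrne had a single estimated read in 1 library. Chrnd and Chrng were listed at 0 in all libraries, where 3 reads would have given at most 0.0383 and 0.0666 RPKM, as were the GABA-A subunit Gabrp, with 0.0343, and Gabra6, a subunit of cerebellar granule cells, with 0.0458. These limits cover counting error only.

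**Figure D2:**
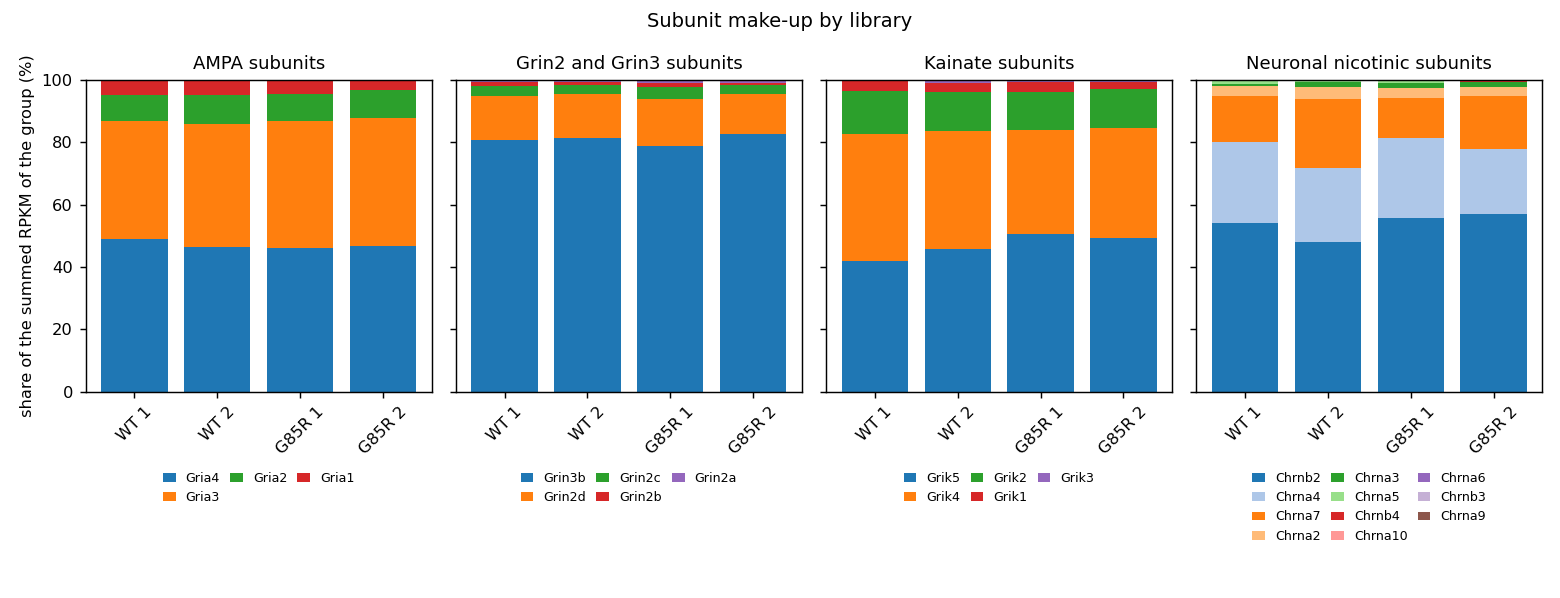
Share of each subunit in the summed RPKM of the AMPA, Grin2 and Grin3, kainate and neuronal nicotinic subunits, as stacked bars from 0 to 100% for the 4 libraries. The AMPA and NMDA make-up is alike in all libraries, with Gria2 at 8.39% to 9.50% and Grin3b at 78.6% to 82.7%, and Chrnb2 holds 48.0% to 57.1% of the neuronal nicotinic RPKM.

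The next question was whether the G85R strain differed from the wild-type strain in receptor RNA before paralysis. Levels were first summed over each class. The AMPA sum was 150 and 138 RPKM in wild-type against 139 and 147 in G85R, the NMDA sum 169 and 198 against 170 and 165, the GABA-A sum 219 and 190.1 against 198 and 200, and the glycine sum 282 and 275 against 252 and 303. For the neuronal nicotinic genes the sum was 30.7 and 35.4 against 35.2 and 34.8. In each of these 5 classes the ranges of the genotypes overlapped, and the log2 ratios of the means lay between -0.13 for NMDA and 0.08 for the neuronal nicotinic class. The delta, kainate and muscle nicotinic sums also overlapped, with log2 ratios of -0.10, -0.01 and -0.08. The rho sum did not overlap, at 0.181 and 0.229 in wild-type against 0.754 and 0.389 in G85R, a log2 ratio of 1.48 that rests on few reads and was 0.93 without G85R replicate 1. For a sum, the smallest two-sided p of an exact permutation test between 2 and 2 libraries is 0.333, so none was run.

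Single genes were compared with limma among the 11530 genes that averaged 1 RPKM or more. At a Benjamini-Hochberg adjusted p under 0.05, limma called 0 of the 30 tested receptor genes, against 74 genes or 0.642% of all tested, and 4 receptor genes had an unadjusted p under 0.05, where 11.0% of all tested genes did. The log-linear test that the study used and voom on estimated reads also called 0 receptor genes, where they called 0.228% of 27189 and 0.824% of 11530 genes. As run here, the log-linear test took rounded RPKM values, summed over the libraries of a genotype, as counts. It could therefore hardly call a gene of low RPKM, and the lack of calls among such genes says little. The genotypes did not overlap in 11 of the 30 receptor genes, 3 of them higher in G85R and 8 lower. Over all tested genes 41.2% did not overlap, 17.3% being higher and 23.9% lower in G85R, so the receptor genes came near that background. Of the 30 genes, 8 had a higher mean of log values in G85R and 22 a lower one, and 45.3% of all tested genes were higher. The median log2 fold change of the receptor genes was -0.09, against -0.02 over all tested genes, and 24 of the 30 were smaller than 0.25 in size.

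**Figure D3:**
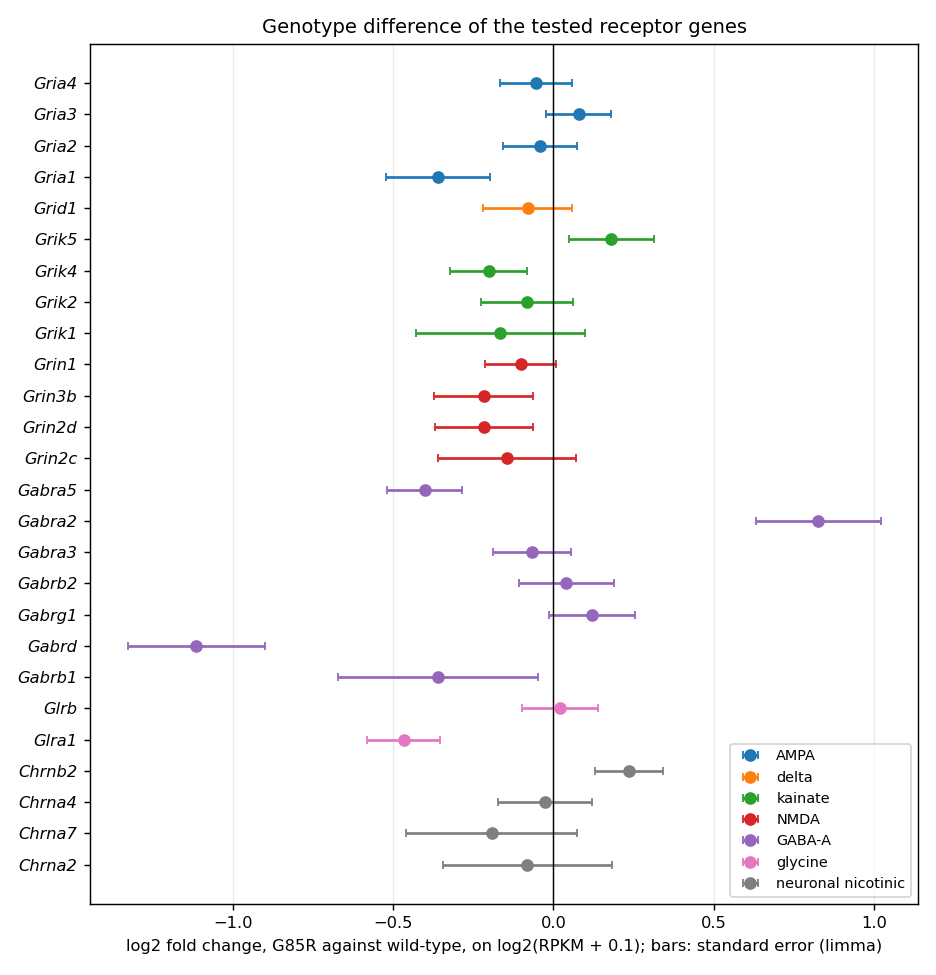
Log2 fold change of G85R against wild-type for 26 of the 30 tested receptor genes, on log2(RPKM + 0.1), with limma standard errors as bars and colors for the receptor class. Gabra2 at 0.83 and Gabrd at -1.11 lie farthest from 0, followed by Glra1 and Gabra5 on the lower side, while the other genes lie between -0.36 and 0.24. No gene passed an adjusted p under 0.05.

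A log2 fold change of at least 0.5 in size together with genotypes that did not overlap was found in 2 receptor genes, both of the GABA-A class, against 6.05% of all tested genes. Gabra2 (chr5:71352296-71487088, Entrez 14395) was at 23.1 and 15.8 RPKM in wild-type against 37.5 and 30.6 in G85R. Both G85R libraries were above both wild-type libraries, and the log2 fold change was 0.83 (SE 0.20, limma adjusted p = 0.167), a ratio of 1.77-fold. Leaving out wild-type replicate 1 raised it to 1.10 and took it past the threshold (limma adjusted p = 0.0163), whereas without G85R replicate 1, the library with the high Gfap, it was 0.68 (limma adjusted p = 0.259). Over all alternatives without a replicate block, its adjusted p ranged from 0.0163 to 0.738, the highest by the log-linear test. The alleles that each mouse of the mixed C57BL/6J x SJL/J background carried at Gabra2 were not analysed here. Gabrd (chr4:154759089-154772221, Entrez 14403) was at 2.43 and 3.27 in wild-type against 1.20 and 1.30 in G85R, from 133 and 190 estimated reads against 60 and 69. It was lower in both G85R libraries, by 1.11 on the log2 scale (SE 0.21, limma adjusted p = 0.102), or 2.16-fold. Each library left out in turn kept its fold change between -1.32 and -0.91. Gabrd is on the chromosome that carries the transgene insertion of strain 737, and the distance between them was not analysed here.

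The other receptor genes with an unadjusted p under 0.05 were Gabra5 and Glra1, which fell outside the rule for named genes and were chosen after their values were seen. Gabra5 (chr7:64663060-64765379, Entrez 110886), an alpha subunit of receptors largely outside synapses, was at 47.9 and 40.9 RPKM in wild-type against 32.5 and 34.5 in G85R, with a log2 fold change of -0.40 (SE 0.12, limma adjusted p = 0.274). Gabra5 was thus the highest alpha subunit in both wild-type libraries, with 48.9% and 50.6% of the alpha RPKM. In G85R it held 34.5% and 39.4%, and Gabra2 39.8% and 35.0%. Gabra2 exceeded Gabra5 in replicate 1 of G85R, while replicate 2 kept the wild-type order. Glra1 was at 20.5 and 22.2 in wild-type against 16.1 and 14.7 in G85R, with a log2 fold change of -0.47 (SE 0.11, limma adjusted p = 0.184). Its partner Glrb overlapped between genotypes, with a log2 fold change of 0.02 (SE 0.12, limma adjusted p = 0.975), a sign that turned under 3 of the alternatives. The markers of inhibitory interneurons were higher on average in G85R for 4 of 4 genes, none of them called, and the summed motor neuron markers were 2455 and 2710 in wild-type against 2194 and 2558 in G85R. Whether these differences had a part in the receptor values was not tested.

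**Figure D4:**
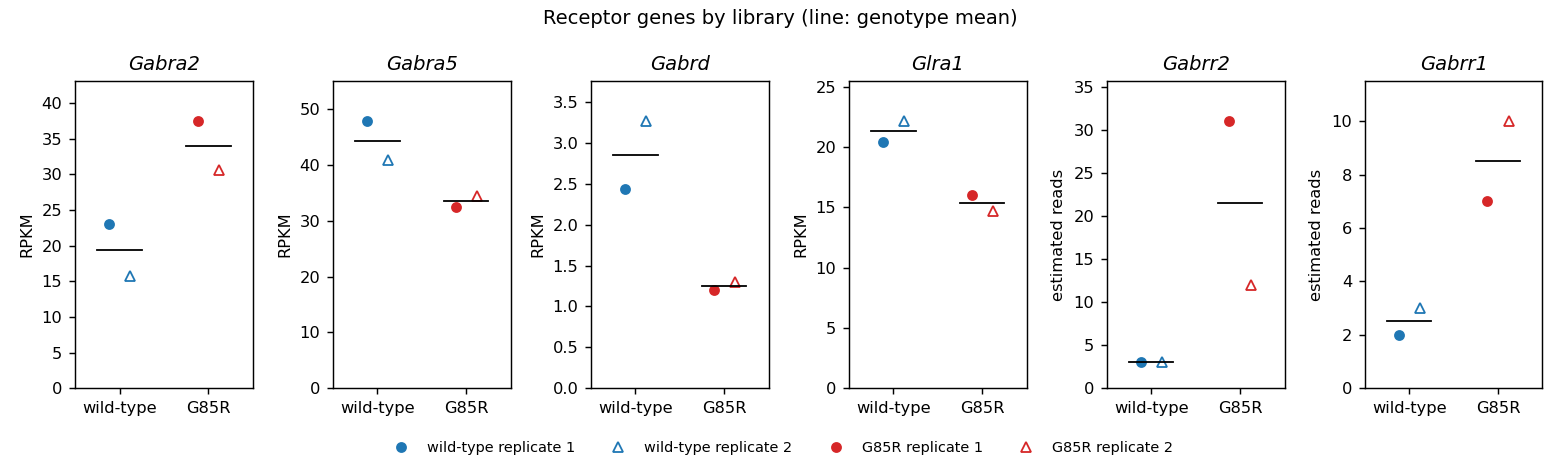
Values by library of the 4 receptor genes with an unadjusted p under 0.05 (RPKM) and of the neighboring rho genes Gabrr2 and Gabrr1 (estimated reads), with each axis starting at 0 and a line at the genotype mean. Gabra2, Gabrr2 and Gabrr1 are higher and Gabra5, Gabrd and Glra1 lower in both G85R libraries.

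The rho subunits, which form GABA receptors known best from the retina, were all below the minimum for testing. Gabrr2 (chr4:33149974-33182840, Entrez 14409) had 3 and 3 estimated reads in wild-type against 31 and 12 in G85R, equal to 0.0564 and 0.0531 against 0.638 and 0.232 RPKM. Its neighbor Gabrr1 (chr4:33219496-33250563, Entrez 14408) had 2 and 3 estimated reads in wild-type against 7 and 10 in G85R. Gabrr3 went the other way, with 4 and 6 estimated reads in wild-type and listed at 0 in both G85R libraries. When genes averaging 0.1 RPKM or more were tested, Gabrr2 had a log2 fold change of 1.68 (SE 0.47, limma adjusted p = 0.251), and voom over genes with at least 10 estimated reads gave adjusted p values of 0.233, 0.422 and 0.188 for Gabrr2, Gabrr1 and Gabrr3. At this depth the rho genes give no call. Gabrr1 and Gabrr2 also lie on chromosome 4. So does Grik3, whose genotypes overlapped at 0.0567 and 0.384 RPKM in wild-type against 0.186 and 0.210 in G85R. Whether the insertion had a part in the values of genes on this chromosome was not tested.

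The glutamate receptor genes had no call and no gene with an unadjusted p under 0.05 among the 14 tested. Gria1 had the largest log2 fold change of them at -0.36 (SE 0.16, limma adjusted p = 0.486), with both G85R libraries below both wild-type ones. The values of the other AMPA genes were -0.04 for Gria2 (SE 0.12, adjusted p = 0.950), 0.08 for Gria3 (SE 0.10, adjusted p = 0.866) and -0.05 for Gria4 (SE 0.11, adjusted p = 0.930), all by limma. Grin1 was at -0.10 (SE 0.11, limma adjusted p = 0.834) and Grin3b at -0.22 (SE 0.15, limma adjusted p = 0.695). Grik5 was at 0.18 (SE 0.13, limma adjusted p = 0.704) and Grid1 at -0.08 (SE 0.14, limma adjusted p = 0.912).

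Chrnb2 was higher in both G85R libraries by a log2 fold change of 0.24 (SE 0.11, limma adjusted p = 0.482), and the other 3 tested nicotinic genes had overlapping genotypes.

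Proteins that escort, anchor or modulate the receptors were examined as 4 lists. Of 43 genes listed, 40 were found and 35 tested, and limma called 0, against 0.642% of all tested genes. An unadjusted p under 0.05 was found for 5, against 11.0% of all tested genes, and 17 of the 35 were higher and 18 lower in G85R. The log-linear test called 1 of the 40, Gabarapl1, higher in G85R, against 0.228% of all genes. As run here, this test takes RPKM as counts and uses no spread between replicates, so it favors genes of high RPKM. Cacng7, the highest of the AMPA and kainate auxiliary genes, was at 86.6 and 110 RPKM in wild-type against 98.0 and 99.9 in G85R (log2 fold change 0.02, SE 0.13, limma adjusted p = 0.982). It exceeded Cacng2, the founding member of these AMPA receptor escorts, at 18.4 to 22.5. Nsf, the ATPase that binds Gria2 protein, led the glutamate receptor anchoring list at 373 and 382 against 344 and 364 (log2 fold change -0.09, SE 0.09, limma adjusted p = 0.795), and the scaffold gene Dlg4 was at 90.5 to 99.2.

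Gephyrin (Gphn), which anchors glycine and GABA-A receptors, was at 38.2 to 41.0 RPKM, and Gabarapl1, the highest of that list, at 414 and 367 in wild-type against 493 and 465 in G85R (log2 fold change 0.30, SE 0.10, limma adjusted p = 0.350). Lynx1, a membrane-tethered modulator of nicotinic receptors, was at 187 and 192 against 208 and 207 (log2 fold change 0.13, SE 0.09, limma adjusted p = 0.689). Rapsn and Musk, which cluster the muscle receptor, did not exceed 0.575 and 0.0113. The remaining genes with an unadjusted p under 0.05 were Cacng5, Cacng3, Dlg1 and Dlgap2, chosen after their values were seen. Of these Dlg1, whose protein binds Gria1, was at 10.1 and 11.7 in wild-type against 7.80 and 7.10 in G85R (log2 fold change -0.54, SE 0.13, limma adjusted p = 0.184).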

How the data were processed

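The authors mapped 75-base single-end reads with Bowtie 0.12.3 to mm9 and a splice junction database and deposited RPKM values per gene cluster, and RPKM values with 1 read added to every gene. Strand was not kept, so overlapping antisense RNA could not be separated. Estimated reads were the RPKM divided by the RPKM of 1 read, the difference between both values. They were whole (within 0.01 reads, for estimates of 0.5 to 30) in 87.0% of entries with 1 transcript and 4.19% of others, so no counting intervals were given. Entry lengths were estimated from the same quantity.

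The genotype contrast was fitted by limma 3.58.1 (R 4.3.3, eBayes with trend) to log2(RPKM + 0.1), which understates changes of low genes, among genes averaging 1 RPKM or more, with Benjamini-Hochberg adjustment. Replicates were single mice with 1 library each, so the spread between mice of a strain includes that of capture and library preparation. The limma p-values rest on this spread, drawn for each gene toward that of genes of like level. The log-linear test uses no spread between replicates. Positions came from the NCBIM37 annotation, in which all 57 genes were placed. Given in full were the highest gene of each class and list, called genes, non-overlapping genes with a log2 fold change of at least 0.5 in size, Gria1 to Gria4 and Grin3b. A few of the 57 genes are not reported here by name or drawn, while counts and sums include them. The members and lists were chosen with earlier results of these data known. Tests were tested on simulated data. Other values used Python 3.11.15, numpy 2.4.6 and pandas 2.3.3, drawn with matplotlib 3.10.9. Alternatives were pseudocounts of 1 and 0.01, minimum means of 0.1, 5 or none, median-ratio or quantile scaling, a replicate block, eBayes without trend or robust, 1 read added, the log-linear test of the study, leaving out each library and, added after the data were seen, voom on estimated reads.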

Additional observations from a re-analysis of the deposited data

How the results depend on the processing

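No receptor gene was called in 16 of 18 alternatives of the test. With the replicate number as a block, 4 were called (Gabra2, Gabra5, Gabrd and Glra1, at limma adjusted p = 0.00100, 0.0480, 0.0118 and 0.0318), together with 527 genes in all and 1 auxiliary gene. Neither the labels nor the study, which sets replicates side by side by number, state what same-numbered mice share, and with 2 pairs the deviations of same-numbered libraries correlated at 0.22 over all tested genes and 0.44 over receptor genes. The log-linear test called 1 auxiliary gene. Leaving out each library in turn gave 0 to 1 receptor genes (Gabra2 without wild-type replicate 1) and 80 to 189 genes in all, with 115 without wild-type replicate 1, 118 without G85R replicate 1 and 189 without G85R replicate 2, the lone library being assumed to vary like the other genotype. Genes called in all were 17 at a minimum RPKM of 5, 112 with none, 39 after quantile normalization, 49 without the trend and 122 with voom over genes with 10 reads, against 74.

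Of 269 values of 15 single genes, 258 kept sign and side of the threshold. Reversed were, with the range over the left-out libraries, Gria2 (-0.102 to 0.0186, above 0 without G85R replicate 1), Gria4 (-0.150 to 0.0413, above 0 without wild-type replicate 1), Grid1 (-0.241 to 0.0808, above 0 without wild-type replicate 2) and Glrb (-0.126 to 0.167, below 0 without wild-type replicate 2 or G85R replicate 2). Glrb was also -0.0239 after quantile normalization. Gabrd was not testable at a minimum of 5. Class ratios moved beyond their spread only on leaving out a library, over ranges of -0.141 to 0.0658 for GABA-A, -0.242 to -0.0134 for NMDA, -0.144 to 0.123 for glycine, -0.0162 to 0.191 for neuronal nicotinic, 0.927 to 1.88 for rho and -0.393 to 0.184 for muscle genes (log2). This spread was the pooled SD within genotypes of the same libraries. Passing it therefore shows only that a single genotype held most of the spread of that class. Why the libraries of that genotype differed was not tested. The means of the 7 subunit shares stayed within their SD over all libraries, both genotypes together. Leaving out a library or scaling whole libraries could not have passed that limit, so this says little about how stable the shares are. Summing entries per symbol changed nothing, each symbol having 1 entry. Depth limits many of the 23 low genes, whose values rest on few reads. This does not hold for all of them. Glra2, below the minimum RPKM, had 30 to 82 estimated reads, against 44 to 92 for the tested Gabrb1.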
